A study of Mus musculus with 26 samples.

Results

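Expression of 10 genes of oxidative and metal stress was followed in retinas and sorted rods of rd10 mice treated with inhibitors of chromatin enzymes. The genes were chosen by name, and each symbol led to 1 Ensembl gene, so that 10 of the 37991 genes in the counts are described. They are the metallothionein genes Mt1 and Mt2, the stress-responsive genes Hmox1 and Nfe2l2, the thioredoxin inhibitor Txnip, the selenium carrier Sepp1 (now Selenop), the glutathione peroxidases Gpx3 and Gpx4, and the superoxide dismutases Sod1 and Sod2. All 10 passed the filter on low counts in each of the 5 comparisons.

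Poly(A) RNA was sequenced from 22 samples of whole retina, called retinas below, and from 4 samples of sorted rods. All mice carried the rd10 mutation of Pde6b (strain B6.CXB1-Pde6brd10/J), which leads to rod degeneration, and were injected intraperitoneally from postnatal day 9 to postnatal day 24, when tissue was taken. In whole retina, 2 samples treated with the EZH2 inhibitor DZNep were compared with 4 controls, and 3 treated with the EZH2 inhibitor UNC1999 with 3 controls. Another 2 were treated with UNC0642, an inhibitor of the H3K9 methyltransferases EHMT1 and EHMT2, and compared with 2 controls. For the HDAC inhibitor Romidepsin, 3 treated samples were compared with 3 controls. Sorted rods were 2 samples treated with the LSD1 inhibitor GSK2879552 and 2 control samples. Their mice were homozygous for rd10 and for an EGFP transgene driven in rods by the Nrl promoter. Controls received saline. According to the methods UNC1999 was given in a mixture of DMSO, PEG300, Tween-80 and saline. The inhibitor and its diluent thus cannot be told apart in that comparison, unless its controls received the same mixture. Injections were daily per the labels, whereas the study's results describe fewer of them in the later part of the DZNep course. In the DZNep and UNC1999 experiments the number at the end of the genotype label rises by 1 from library to library, and UNC1999 is spelled UNC2000 and UNC2001 in later replicates, which reads as automatic filling of a spreadsheet column, so groups were taken from the titles. Labels call the samples biological replicates but name no separate litters, so p-values measure the spread between these samples.

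Libraries held 13732959 to 36354094 counted reads in retina and 7289460 to 19864491 in sorted rods. Levels are given as CPM, the reads of a gene relative to all counted reads of its library, scaled by TMM factors within each experiment. The summed CPM of 10 rod markers was 8183 to 34240 in the control retinas and 48160 to 74630 in the control sorted rods, while that of 10 Müller glia markers was 6713 to 13610 and 440 to 665. That of 6 cone markers was 626 to 1859 and 1732 to 3064, so cone transcripts were not depleted in the sorted samples. In treated retinas the rod list was above all controls with DZNep, UNC1999 and UNC0642, and the Müller glia list was below all controls with DZNep, UNC0642 and Romidepsin. In whole retina, fewer cells of a type and less RNA per cell cannot be told apart.

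Cells meet reactive oxygen with several layers of defence. Nfe2l2 encodes NRF2, a transcription factor that KEAP1 holds in check until oxidants or electrophiles release it, and Hmox1, which encodes the heme-degrading enzyme heme oxygenase 1, is among its classical targets. Metallothioneins are small cysteine-rich proteins that bind zinc and copper, and their genes respond to the zinc sensor MTF1, to glucocorticoids and to inflammatory signals. Superoxide dismutases turn superoxide into hydrogen peroxide in the cytosol (Sod1) and in mitochondria (Sod2), and selenium-containing peroxidases remove peroxides outside cells (Gpx3) or in membranes (Gpx4). Rods use much oxygen, and in the retina metallothioneins and many antioxidant genes are prominent in Müller glia.

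The promoters of Mt1, Mt2 and Txnip are shown because these genes differed most clearly between inhibitors. Each sequence holds 250 bases before the gene start and 50 after it, from the RefSeq promoter table of GRCm38.p6, and was placed on the build of the counts, NCBIM37, by its single exact match on the chromosome, on the plus strand. For Mt1 and Mt2 the capitals mark the core of the metal response element (TGCACNC or TGCGCNC, either strand), and for Txnip they mark the match to a carbohydrate response element, a pair of E-box-like motifs with a fixed gap.
Mt1, chr8:96702739-96703038: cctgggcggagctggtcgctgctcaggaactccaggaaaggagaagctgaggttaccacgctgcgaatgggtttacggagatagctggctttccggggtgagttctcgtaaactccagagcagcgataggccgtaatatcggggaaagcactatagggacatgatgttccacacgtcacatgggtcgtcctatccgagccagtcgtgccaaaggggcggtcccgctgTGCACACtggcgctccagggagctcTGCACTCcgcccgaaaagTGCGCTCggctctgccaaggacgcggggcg
Mt2, chr8:96696268-96696567: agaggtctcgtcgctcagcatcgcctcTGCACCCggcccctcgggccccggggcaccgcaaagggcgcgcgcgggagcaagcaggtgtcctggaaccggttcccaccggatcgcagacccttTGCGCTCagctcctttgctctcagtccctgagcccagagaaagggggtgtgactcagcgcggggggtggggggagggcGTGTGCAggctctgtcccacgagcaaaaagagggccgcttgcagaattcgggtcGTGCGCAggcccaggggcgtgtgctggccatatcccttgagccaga
Txnip, chr3:96361630-96361929: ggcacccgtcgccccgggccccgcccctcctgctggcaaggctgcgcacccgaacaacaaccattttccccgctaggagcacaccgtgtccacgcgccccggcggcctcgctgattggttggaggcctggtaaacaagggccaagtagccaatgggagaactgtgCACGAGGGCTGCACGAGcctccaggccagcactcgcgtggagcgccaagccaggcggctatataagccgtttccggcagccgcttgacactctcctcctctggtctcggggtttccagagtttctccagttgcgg

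The Mt1 window held 3 cores of the metal response element and the Mt2 window 4, whereas 25.7% of 32851 promoters held at least 1 and 0.517% held at least 4. The Txnip window held 1 carbohydrate response element, a sequence found in 0.365% of promoters, and 1 core of the metal response element, which is not in capitals. The core of the antioxidant response element (TGACNNNGC, either strand, 12.4% of promoters) was present once each in the windows of Nfe2l2, Sod1 and Mt2. The table held promoters of 9 of the 10 genes, all except Hmox1. A match of letters is a description of the window and not evidence of binding.

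The 10 genes spanned a wide range in control retinas (12 libraries, levels per kilobase of exon). Median levels were highest for Mt2 (215 CPM per kb) and Mt1 (214), followed by the cytosolic enzyme Sod1 (161) and by Gpx4 (132), which protects membrane lipids. Next came Sod2 (37.1), Sepp1 (19.8), Txnip (11.1), Nfe2l2 (10.2), Gpx3 (8.64) and Hmox1 (6.85). The superoxide dismutases varied little between control retinas: the highest level was 1.25 times the lowest for Sod2 and 1.42 times for Sod1. Gpx3, by contrast, varied 15.4-fold, Hmox1 9.71-fold, Mt2 4.76-fold and Mt1 3.8-fold between control retinas. Neighbours in the order overlapped in range from Mt2 to Gpx4, and again from Sepp1 to Hmox1, while Sod2 stood apart from both neighbours.

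Sorted control rods had a different profile. The median of control retinas was 52.4 times the higher of the 2 rod libraries for Mt2, 19.2 times for Mt1, 7.35 times for Txnip, 6.69 times for Gpx3, 6.46 times for Sepp1 and 4.12 times for Sod1. The ratio was only 2.13 for Hmox1, 1.33 for Gpx4 and 0.955 for Sod2. Nfe2l2 went the other way, with a ratio of 0.637 and levels of 58.0 and 60.9 CPM in rods against 30.5 to 47.9 CPM in the 12 control retinas. Rods and retinas were made with different library kits according to the methods and were scaled separately, so these levels are set side by side without a test.

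**Figure D1:**
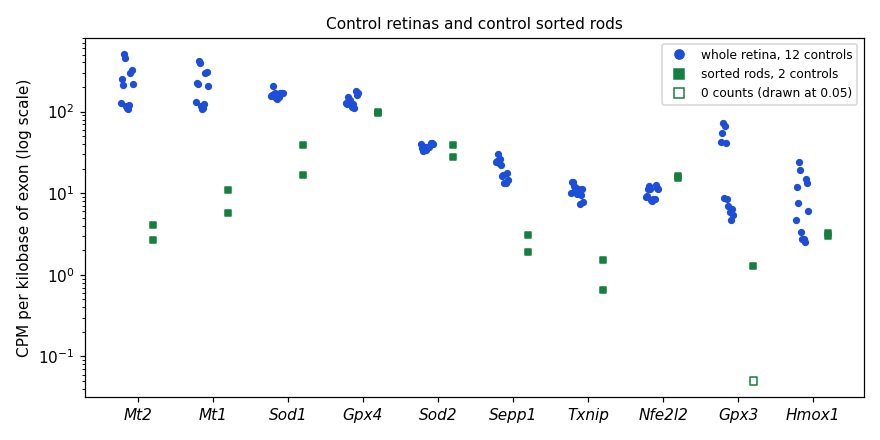
Level of each of the 10 genes in CPM per kilobase of exon (log axis) in 12 control retinas (circles) and 2 control samples of sorted rods (squares), ordered by the retina median. Mt2 and Mt1 lie at medians of 215 and 214 in retina and at 2.64 to 11.1 in rods, and the open square marks the rod library with 0 counts of Gpx3, drawn at 0.05.

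Metallothioneins moved in opposite directions with DZNep and Romidepsin. Both genes fell with DZNep, Mt2 to 0.621 and Mt1 to 0.810 of the control level, whereas every Romidepsin retina lay above every control, with means 4.48 times and 3.89 times those of controls. The Romidepsin differences narrowly missed the threshold of an adjusted p under 0.05, while the difference between the DZNep and Romidepsin effects passed it for both genes.

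Mt1 lies at chromosome 8, 96702989 to 96704225 (ENSMUSG00000031765), and Mt2 upstream of it at 96696518 to 96697467 (ENSMUSG00000031762). The 2 transcripts are similar in sequence, so reads shared between them are uncertain in how they were assigned. In the DZNep experiment Mt1 was at 88.4, 82.2, 83.9 and 94.4 CPM in controls and at 71.7 and 69.6 CPM in treated retinas. Mt2 was at 65.1, 61.3, 59.2 and 66.6 CPM in controls and at 42.0 and 35.7 CPM with DZNep. Both treated retinas were below all controls for both genes. The log2 fold change was -0.69 ± 0.079 (SE, adjusted p = 0.00103) for Mt2 and -0.30 ± 0.063 (adjusted p = 0.00999) for Mt1 by edgeR's quasi-likelihood test, which is used for every adjusted p below unless another tool is named. In that comparison 22.7% of the 16477 genes tested passed the threshold, and 4 of the 10 genes described here did, 1 higher (12.9% of all genes) and 3 lower (9.72%). At an unadjusted p under 0.05 they were 6 of 10, against 36.5%. The Mt2 call held when any 1 library was left out, and the Mt1 call was lost without DZNep replicate 1 (adjusted p = 0.0723) or replicate 2 (0.0601). When all 22 retinas shared 1 estimate of spread, none of the 4 calls passed (adjusted p = 0.293 for Mt2 and 0.65 for Mt1), with log2 fold changes of -0.68 and -0.30. Both calls were also lost against 9 control retinas pooled from 3 experiments, those whose library names start with G-981, although the log2 fold changes were larger, at -1.61 for Mt2 (adjusted p = 0.116) and -1.07 for Mt1 (0.189).

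With Romidepsin, Mt1 was at 99.7, 167 and 165 CPM in controls and at 275, 661 and 741 CPM in treated retinas. Mt2 was at 71.5, 139 and 117 CPM in controls and at 229, 572 and 669 CPM in treated retinas. The groups did not overlap for either gene, and the first replicate was the lowest of its group in both groups. The log2 fold change was 1.96 ± 0.357 (adjusted p = 0.0518) for Mt1 and 2.16 ± 0.390 (adjusted p = 0.0505) for Mt2. None of the 10 genes passed the threshold with Romidepsin, where 0.748% of 16049 genes did, 0.573% higher and 0.174% lower. Of the 10, 5 had an unadjusted p under 0.05, against 19.4% of all genes. The likelihood ratio test and DESeq2 each called 3 of the 10: Mt1, Mt2 and Gpx3, against 7.38% and 6.69% of all genes. In the fit of all 22 retinas the 2 metallothioneins passed, at adjusted p = 0.000732 for Mt1 and 0.000636 for Mt2, against 17.3% of all genes. With 1 library left out, both passed in 2 of 6 fits, without Romidepsin replicate 1 (0.0106 for Mt1 and 0.0115 for Mt2) or replicate 2 (0.0458 and 0.0444). In the other 4 fits the adjusted p was 0.0841 to 0.178 for Mt1 and 0.0791 to 0.173 for Mt2.

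UNC1999 gave no common direction for the metallothioneins. Mt1 was at 221, 234 and 157 CPM in controls and at 123, 214 and 317 CPM in treated retinas, and Mt2 at 163, 182 and 122 CPM and at 94.9, 178 and 257 CPM. The treated retinas lay on both sides of the controls (log2 fold change 0.10 ± 0.307 for Mt1 and 0.18 ± 0.317 for Mt2). With UNC0642 the treated retinas were above both controls, at 440 and 421 CPM against 313 and 298 CPM for Mt1, and at 387 and 328 CPM against 282 and 252 CPM for Mt2. These differences did not pass (log2 fold change 0.50 ± 0.069, adjusted p = 0.224, and 0.42 ± 0.103, adjusted p = 0.299). No gene out of 16321 passed in that comparison, a share of 0%, with edgeR's quasi-likelihood test. Of the 10 genes 6 had an unadjusted p under 0.05, against 14.7% of all genes; the likelihood ratio test called 2 (Mt1 and Sepp1), against 0.888% of all genes, and DESeq2 3 (also Mt2), against 0.931%. Against the 9 controls whose library names start with G-981, pooled from 3 experiments, the log2 fold changes were larger, at 1.43 for Mt1 (adjusted p = 0.0566) and 1.49 for Mt2 (0.0762).

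The effects of the inhibitors were then compared with each other in 1 fit of the 22 retinas, each effect taken against its own controls. In 6 pairs of inhibitors, 5 of 60 differences passed, and 4 of these were of metallothioneins. The DZNep effect was lower than the Romidepsin effect by 2.86 ± 0.510 on the log2 scale for Mt2 (log2 difference -2.86, adjusted p = 0.0277) and by 2.26 ± 0.465 for Mt1 (log2 difference -2.26, adjusted p = 0.0453). The UNC1999 effect was also below the Romidepsin effect, with log2 differences of -1.99 ± 0.469 (adjusted p = 0.0210) for Mt2 and -1.87 ± 0.435 (adjusted p = 0.0200) for Mt1. Among all 17274 genes, 0.289% passed for DZNep less Romidepsin (0.162% higher and 0.127% lower) and 5.11% for UNC1999 less Romidepsin (2.15% higher and 2.96% lower). Of the 10 genes, 4 had an unadjusted p under 0.05 in each of these pairs, against 13.8% and 21.8% of all genes. The first of these rested on few libraries, since Mt1 passed in 5 of 22 fits with 1 library left out and Mt2 in 15 of 22; without DZNep replicate 2 the adjusted p was 0.239 for Mt1 and 0.162 for Mt2. The differences from UNC1999 passed in 18 of 22 such fits for each gene, and the adjusted p was 0.0637 for Mt1 and 0.0666 for Mt2 without Romidepsin control replicate 1. The UNC0642 and Romidepsin effects differed by -1.75 ± 0.523 (adjusted p = 0.171) for Mt2 and -1.47 ± 0.485 (adjusted p = 0.21) for Mt1. Without Romidepsin replicate 1, the lowest treated retina, these passed (adjusted p = 0.0179 and 0.0236). In that pair 4 of the 10 genes had an unadjusted p under 0.05, against 12.6% of all genes, and 0 passed, against 0.0174%. None of the 10 passed for DZNep less UNC1999, DZNep less UNC0642 or UNC1999 less UNC0642, where 0.00579%, 0.0232% and 0.0116% of all genes did. At an unadjusted p under 0.05 they were 0, 1 and 0 of 10, against 9.45%, 13.1% and 12.0%. The likelihood ratio test called 1 gene for DZNep less UNC0642, Gpx3.

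Over the 22 retinas, taken as deviations from the controls of their own experiment, Mt1 and Mt2 moved almost as one, with Pearson's r of 0.988. Among 17274 genes the next most similar were Slc12a9 (0.970 with Mt1 and 0.966 with Mt2), Junb (0.942 with Mt1), an AP-1 transcription factor gene, and Sbno2 (0.939 with Mt2). Slc12a9 varied far less in size, from 27.6 to 54.2 CPM over the 22 retinas. These correlations describe libraries that share experiments and treatments, and no test was made. The mean log2 deviation of 10 gliosis markers moved with the metallothioneins over retinas (r of 0.719 for Mt1 and 0.718 for Mt2). That of 6 cone markers moved against them (-0.814 and -0.759). Gliosis markers summed to 876 to 1822 CPM in controls and 1595 to 2042 CPM with Romidepsin, and to 725 to 1130 CPM and 627 to 635 CPM in the DZNep experiment. With UNC0642, where both metallothionein genes were above controls, the gliosis sum was mostly lower (3308 to 3906 CPM in controls and 2619 to 3390 CPM in treated retinas). With UNC1999 it was 1367 to 2171 CPM in controls and 602 to 1615 CPM in treated retinas. Their part in the result was not tested.

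Metallothioneins were scarce in sorted rods, at 4.28 and 8.36 CPM for Mt1 and 1.47 and 2.28 CPM for Mt2 in controls. With GSK2879552 Mt1 was at 4.36 and 4.13 CPM and Mt2 at 0.935 and 0.605 CPM, the last of these resting on 6 reads. Mt2 was lower in both treated samples, and Mt1 overlapped between groups. Neither difference passed (log2 fold change -1.27 ± 0.783 for Mt2 and -0.59 ± 0.477 for Mt1, adjusted p = 0.987 for both). No gene out of 14478 passed in sorted rods, a share of 0%; none of the 10 genes had an unadjusted p under 0.05, against 4.91% of all genes, and neither the likelihood ratio test nor DESeq2 called any of them.

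**Figure D2:**
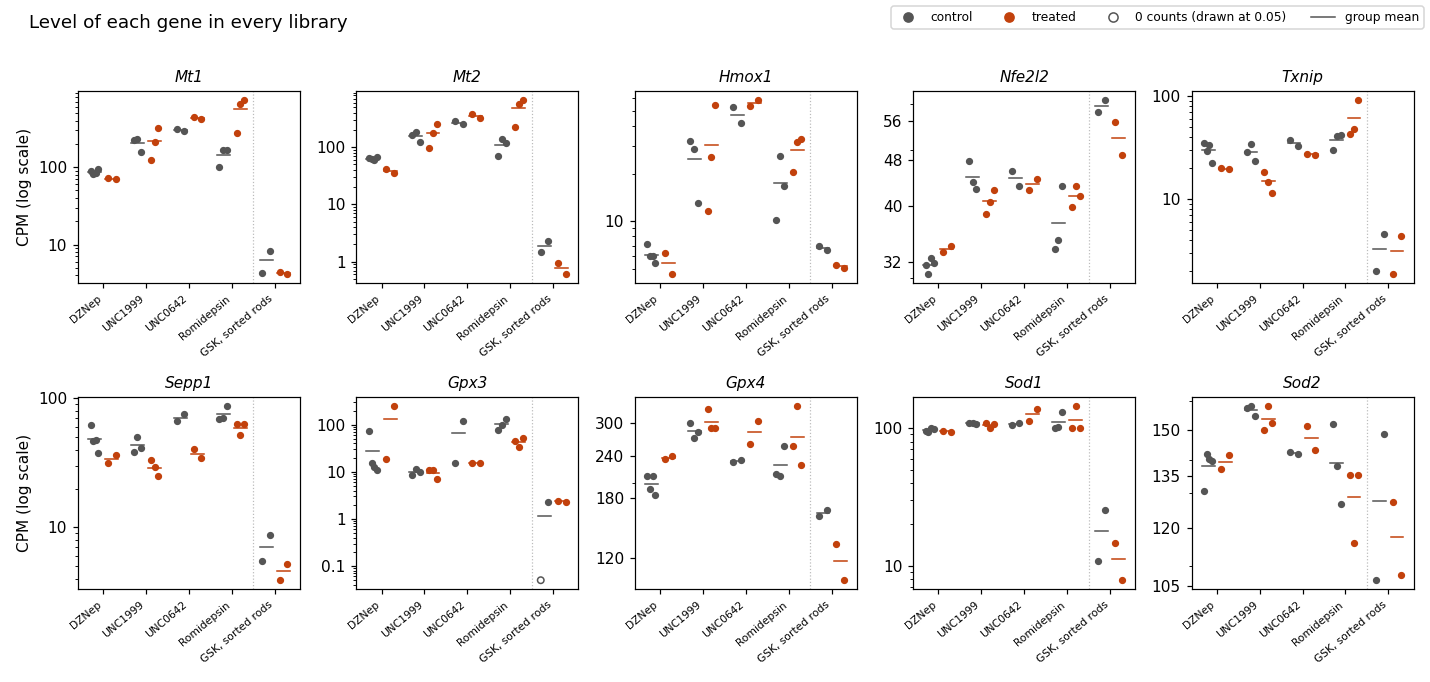
Level of each of the 10 genes in CPM (log axis) in every library, by experiment, with controls in grey, treated samples in orange and group means as lines; the scale differs between panels. Mt1 reaches 275 to 741 CPM with Romidepsin and lies at 69.6 to 94.4 CPM in all libraries of the DZNep experiment, and Sepp1 is lower in every treated sample than in the controls of the same experiment.

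Hmox1 and Nfe2l2 gave no call with any inhibitor. Hmox1 varied more between control retinas than the metallothioneins (9.71-fold, against 4.76-fold for Mt2 and 3.8-fold for Mt1). Hmox1 (ENSMUSG00000005413; chromosome 8, 77617490 to 77624495) had its lowest retina levels in the DZNep experiment, at 7.14, 5.98, 5.99 and 5.42 CPM in controls and 6.24 and 4.61 CPM in treated retinas. In the UNC1999 experiment it was at 32.4, 28.8 and 13.0 CPM in controls and 11.6, 25.4 and 54.6 CPM in treated retinas. The treated retinas thus included the lowest and the highest of that experiment (log2 fold change 0.32 ± 0.522). It was at 52.7 and 41.6 CPM in the UNC0642 controls and 53.5 and 58.5 CPM in treated retinas, where the groups were separated by less than 1 CPM. With Romidepsin the values were 10.2, 25.8 and 16.6 CPM in controls and 20.5, 31.5 and 33.2 CPM in treated retinas (log2 fold change 0.69 ± 0.316, adjusted p = 0.275). Hmox1 moved with Mt1 (r of 0.775) and Mt2 (0.769) over the 22 retinas, and the genes most like it were Uaca (0.909), Nfkb2 (0.906), which encodes a subunit of NF-kappaB, and Stx11 (0.873). In the UNC1999 experiment the same treated retina, replicate 3, was highest for Hmox1, Mt1 and Mt2, and replicate 1 was lowest for all of them.

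Nfe2l2 (ENSMUSG00000015839; chromosome 2, 75513570 to 75542698, minus strand) stayed within a narrow band in every experiment. Its controls were at 30.5 to 32.5 CPM in the DZNep experiment and its treated retinas at 33.2 and 34.1 CPM, all slightly above (log2 fold change 0.09 ± 0.056, adjusted p = 0.289). With UNC1999 it was at 38.8, 40.7 and 42.6 CPM, just below controls at 47.9, 44.0 and 42.7 CPM (log2 fold change -0.14 ± 0.071, adjusted p = 0.285). Groups overlapped with UNC0642 and Romidepsin, with log2 fold changes of -0.04 ± 0.082 and 0.15 ± 0.131. In sorted rods it was at 58.0 and 60.9 CPM in controls and 55.8 and 48.9 CPM with GSK2879552, a lower level that did not pass (log2 fold change -0.18 ± 0.219, adjusted p = 0.989). Hmox1 in rods was likewise lower in both treated samples, at 5.30 and 5.04 CPM against 6.95 and 6.55 CPM (adjusted p = 0.989). The U6 gene that overlaps Nfe2l2 held 1.04 counts per library on average.

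Txnip encodes a protein that binds and inhibits thioredoxin and restrains glucose uptake. It was lower with both EZH2 inhibitors and UNC0642 and higher with Romidepsin, though only the DZNep difference passed. The gene lies at chromosome 3, 96361880 to 96365806 (ENSMUSG00000038393). In the DZNep experiment it was at 35.2, 29.6, 33.8 and 22.3 CPM in controls and at 20.03 and 19.64 CPM in treated retinas. It fell by 0.60 ± 0.165 on the log2 scale (adjusted p = 0.0312). The call was lost without either DZNep retina (adjusted p = 0.171 without replicate 1 and 0.121 without replicate 2), without control replicate 2 (0.0644) and without control replicate 3 (0.0703). With UNC1999 Txnip was at 29.0, 34.6 and 23.7 CPM in controls and at 18.4, 14.8 and 11.5 CPM in treated retinas, again without overlap (log2 fold change -0.98 ± 0.194, adjusted p = 0.0551). It passed without UNC1999 control replicate 3 (adjusted p = 0.00679), and by the likelihood ratio test (0.000268, with 10.4% of all genes called) and DESeq2 (8.06e-05, with 9.25%). With 1 of the other 5 libraries left out the adjusted p was 0.0884 to 0.21. Of all genes 0.602% passed with UNC1999, 0.501% higher and 0.101% lower, and of the 10 genes none did; 2 had an unadjusted p under 0.05, Txnip and Sepp1, against 23.6% of all genes.

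With UNC0642 Txnip was at 37.5 and 33.3 CPM in controls and 27.7 and 26.9 CPM in treated retinas (log2 fold change -0.38 ± 0.096, adjusted p = 0.299). With Romidepsin it was at 30.2, 41.4 and 42.2 CPM in controls and 43.5, 47.8 and 92.3 CPM in treated retinas. The log2 fold change was 0.69 ± 0.281 (adjusted p = 0.225). It was 0.27 without treated replicate 3, which stood far above the rest. The UNC1999 effect was below the Romidepsin effect by a log2 difference of -1.67 ± 0.344 (adjusted p = 0.0105), which passed in 22 of 22 fits with 1 library left out. The difference between DZNep and Romidepsin did not pass (log2 difference -1.29 ± 0.357, adjusted p = 0.11), and it did by the likelihood ratio test (0.0296), by DESeq2 (0.0228) and without Romidepsin replicate 1 (0.0234). In sorted rods Txnip was at 2.00 and 4.56 CPM in controls and 1.87 and 4.44 CPM in treated samples, with full overlap. The lincRNA gene Gm15441, on the opposite strand, overlaps Txnip and held 5.65 counts per library on average, and whether counting used strand is not given in the sources used here. The genes most like Txnip over the 22 retinas were Ctdsp2 (r of 0.908), Rnase4 (0.892) and Rgma (0.870). Gliosis markers moved with Txnip (r of 0.726) and cone markers against it (-0.712). Markers of the retinal pigment epithelium (10 genes) moved most strongly against Txnip (r of -0.863 for the mean of their log2 deviations). Their summed level was 120 to 142 CPM in controls and 377 to 435 CPM with UNC1999. In the DZNep experiment it was 73.9 to 174 CPM and 219 to 265 CPM, and in the UNC0642 experiment 82.1 to 148 CPM and 166 to 188 CPM. In the Romidepsin experiment it was 104 to 113 CPM and 63.9 to 73.0 CPM. The part of this in the result was not tested.

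**Figure D3:**
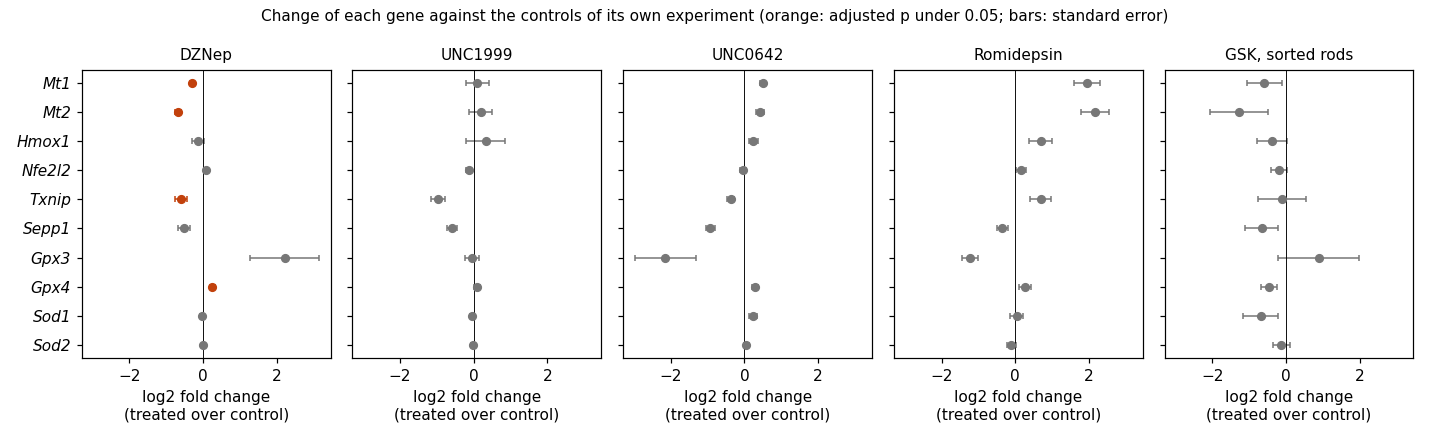
Log2 fold change of each of the 10 genes against the controls of its own experiment, with bars for the standard error; orange marks an adjusted p under 0.05. Only 4 of the 50 values are orange, all with DZNep, and large effects such as that of Gpx3 with DZNep, at 2.22 ± 0.942, can have wide bars.

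Sepp1 was lower in every treated sample than in every control of the same experiment, in all 5 comparisons. Its product, selenoprotein P, carries selenium between tissues and serves the synthesis of other selenoproteins. Sepp1 (ENSMUSG00000064373) lies at chromosome 15, 3218547 to 3230508. It was at 62.3, 46.5, 47.1 and 37.7 CPM in the DZNep controls and at 31.3 and 36.6 CPM in treated retinas. In the UNC1999 experiment it was at 38.4, 50.2 and 41.2 CPM in controls and 33.0, 29.1 and 24.9 CPM in treated retinas. In the UNC0642 experiment it was at 66.4 and 75.5 CPM in controls and 40.4 and 34.2 CPM in treated retinas, the widest gap of the 5 comparisons in whole retina or rods as a ratio of means (0.527). With Romidepsin it was at 68.7, 70.3 and 87.2 CPM in controls and 63.0, 51.6 and 63.2 CPM in treated retinas. In sorted rods the level was low, at 5.48 and 8.71 CPM in controls and 3.90 and 5.24 CPM with GSK2879552.

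By the quasi-likelihood test no single comparison passed the threshold for Sepp1. The log2 fold change was -0.52 ± 0.172 (adjusted p = 0.0601) with DZNep, -0.58 ± 0.132 (0.0622) with UNC1999, -0.92 ± 0.114 (0.224) with UNC0642, -0.35 ± 0.139 (0.219) with Romidepsin and -0.66 ± 0.447 (0.987) in rods. The likelihood ratio test called Sepp1 with DZNep (adjusted p = 0.0256), UNC1999 (0.00299) and UNC0642 (3.1e-07), and DESeq2 with UNC1999 (0.00271) and UNC0642 (2.91e-07) but not with DZNep (0.116). Neither tool called it with Romidepsin (0.215 and 0.217) or in rods. Leaving out 1 library brought it under the threshold in 3 experiments: DZNep without control replicate 4 (adjusted p = 0.0161) or control replicate 1 (0.0352), UNC1999 without control replicate 3 (0.0269) and UNC0642 without control replicate 1 (0.0046). Of 13029 genes tested in all 5 comparisons, 28 (0.215%) had every treated sample below every control in each, and Sepp1 was the only one of the 10 among them. The same held for 173 of 15375 genes (1.13%) over the 4 retina comparisons.

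The mean of the 4 retina effects was tested in the fit of 22 retinas, a test that was chosen after the values of Sepp1 had been seen. The mean log2 fold change of Sepp1 was -0.59 ± 0.086 (adjusted p = 0.000149), and it passed in 22 of 22 fits with 1 library left out, at adjusted p of 8.43e-05 to 0.000986. By this test 24.6% of all genes passed, 12.8% higher and 11.9% lower, and 4 of the 10 did. At an unadjusted p under 0.05 they were 5, against 36.9%. Mt1 was higher on average (0.57 ± 0.165, adjusted p = 0.017), as were Mt2 (0.53 ± 0.178, 0.0373) and Gpx4 (0.23 ± 0.064, 0.012). For the metallothioneins this mean covers effects of opposite sign. Mt2 passed in only 8 of 22 fits with 1 library left out (adjusted p up to 0.0968, without DZNep replicate 1), and Gpx4 in 21 of 22, the exception being UNC0642 replicate 2 (0.0508). The Sepp1 effect did not differ detectably between DZNep and UNC1999 (log2 difference 0.07 ± 0.234) or in any other pair of inhibitors, the lowest adjusted p being 0.343 for UNC0642 less Romidepsin.

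Glial markers, and to a lesser degree vascular markers, moved with Sepp1. Over the 22 retinas its r was 0.754 with the mean log2 deviation of 12 microglia markers and 0.750 with that of 10 Müller glia markers. The genes most like Sepp1 were Apoc1 (0.856), Bmpr1b (0.852) and the microglia gene Trem2 (0.843). The microglia sum was 205 to 453 CPM in DZNep controls and 154 to 174 CPM in treated retinas, 215 to 382 and 114 to 157 CPM in the UNC1999 experiment, 651 to 926 and 371 to 613 CPM in the UNC0642 experiment, and 425 to 683 and 318 to 459 CPM in the Romidepsin experiment. The Müller glia sum was 11280 to 11670 and 7905 to 8754 CPM with DZNep, 6713 to 8550 and 6119 to 7935 CPM with UNC1999, 9353 to 10090 and 7380 to 7778 CPM with UNC0642, and 11210 to 13610 and 8378 to 9483 CPM with Romidepsin. Groups overlapped for microglia with Romidepsin and for Müller glia with UNC1999. None of these markers was at 0 in all libraries of a group, and their part in the result was not tested.

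Gpx3, which encodes the secreted glutathione peroxidase, took its values from a few retinas that stood high. It lies at chromosome 11, 54715955 to 54723879 (ENSMUSG00000018339). In the DZNep experiment it was at 74.0, 15.6, 12.7 and 10.8 CPM in controls and at 18.6 and 250.1 CPM in treated retinas. In the UNC0642 experiment 1 control was at 120.5 CPM, the other at 15.7 CPM, and the treated retinas were at 15.3 and 15.1 CPM. The effects rested on 1 high library in each experiment. The log2 fold change was 2.22 ± 0.942 (adjusted p = 0.125) with DZNep, and -0.60 without DZNep replicate 2. It was -2.15 ± 0.838 (adjusted p = 0.336) with UNC0642, and -0.04 without the high control, replicate 2. Without DZNep control replicate 1 the first passed (log2 fold change 3.32, adjusted p = 0.0192), and without the low UNC0642 control, replicate 1, the second did (log2 fold change -2.98, adjusted p = 5.62e-07).

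In the UNC1999 experiment Gpx3 was low and even, at 8.56, 11.5 and 9.75 CPM in controls and 10.9, 10.9 and 7.11 CPM in treated retinas. With Romidepsin all 6 retinas were high, at 77.2, 98.5 and 132 CPM in controls and 45.3, 33.7 and 51.9 CPM in treated retinas. The Romidepsin groups did not overlap (log2 fold change -1.23 ± 0.221, adjusted p = 0.0502), and the adjusted p was 0.039 without control replicate 1 and 0.0427 without treated replicate 2, and 0.0598 to 0.148 in the other 4 fits with 1 library left out. In the fit of all 22 retinas it was 0.28, and against the 9 pooled controls the log2 fold change was -0.51 (adjusted p = 0.668). In sorted rods it was at 0 counts and 2.34 CPM in controls and at 2.44 and 2.32 CPM in treated samples. The count of 0 allows up to 0.401 CPM in that library (3 counts).

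The same retinas were high for genes with a pattern like that of Gpx3, among them Sod3 (r of 0.969), the extracellular superoxide dismutase, and Optc (0.935), which encodes opticin, a protein of the vitreous. Optc was at 48.8, 11.0, 7.93 and 4.05 CPM in DZNep controls and at 3.76 and 169.6 CPM in treated retinas. It was at 5.01 and 167 CPM in UNC0642 controls and 5.24 and 9.32 CPM in treated retinas, and at 136, 221 and 212 CPM in Romidepsin controls and 81.2, 50.9 and 33.4 CPM in treated retinas. The retinas high for Gpx3 were thus the ones high for Optc. Sod3 gave the same picture, at 25.4 CPM in DZNep replicate 2 against 3.35 CPM in replicate 1. Lens markers (6 genes) summed to 71.3 CPM in DZNep replicate 2 and to 1.49 CPM in replicate 1, with Lim2 at 0 in both. They were at 1.40 to 2.16 CPM in UNC0642 controls and 1.13 to 2.12 CPM in the Romidepsin experiment, so the other retinas high for Gpx3 had lens markers near those of the rest. The part of such material in the Gpx3 values was not tested.

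**Figure D4:**
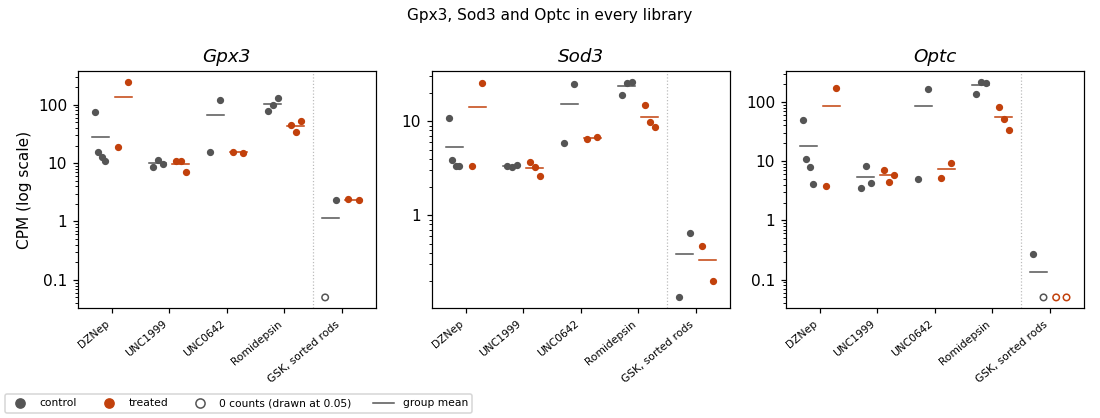
Level of Gpx3 and of Sod3 and Optc, which had a similar pattern over 22 retinas, in CPM (log axis), for every library by experiment, with controls in grey, treated samples in orange and group means as lines; open circles mark 0 counts, drawn at 0.05. DZNep replicate 2, UNC0642 control replicate 2, DZNep control replicate 1 and the Romidepsin retinas stand high in all 3 panels, for example at 250.1, 120.5 and 74.0 CPM for Gpx3 in the first 3.

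Gpx4, which reduces lipid hydroperoxides in membranes and guards against ferroptosis, rose with DZNep. It lies at chromosome 10, 79509911 to 79519184 (ENSMUSG00000075706), and it was at 208.8, 192.1, 209.1 and 184.2 CPM in controls and 235 and 239.8 CPM in treated retinas. All treated values were above all controls, by a log2 fold change of 0.26 ± 0.060 (adjusted p = 0.0170). The call was lost without DZNep replicate 1 (0.0952), DZNep replicate 2 (0.0900) or control replicate 2 (0.0523). With UNC0642 it was at 229.4 and 232.4 CPM in controls and 259.5 and 304.5 CPM in treated retinas (log2 fold change 0.29 ± 0.090, adjusted p = 0.304). With UNC1999 and Romidepsin the groups overlapped, at log2 fold changes of 0.09 ± 0.075 and 0.27 ± 0.167. In sorted rods it was at 159.6 and 165.9 CPM in controls and lower with GSK2879552, at 132.5 and 103.4 CPM, a difference that did not pass (log2 fold change -0.46 ± 0.210, adjusted p = 0.987). The retina genes most like Gpx4 were Tbcc (r of 0.972), Mdh2 (0.953), a mitochondrial malate dehydrogenase, and Uqcrc1 (0.948), a subunit of respiratory complex III.

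The superoxide dismutases varied little between control retinas, and Sod1 varied more in sorted rods. Sod1 (ENSMUSG00000022982; chromosome 16, 90220987 to 90226567) ranged from 93.0 to 100.7 CPM over the 6 retinas of the DZNep experiment and from 100.9 to 109.6 CPM over those of the UNC1999 experiment. In the Romidepsin experiment 1 control (131.9 CPM) and 1 treated retina (145.0 CPM) stood above the other 4, which were at 99.7 to 102.2 CPM. With UNC0642 the treated retinas were at 113.4 and 138.4 CPM against 106.0 and 109.7 CPM in controls (log2 fold change 0.22 ± 0.104, adjusted p = 0.364). In rods Sod1 was at 10.8 and 25.3 CPM in controls and 14.6 and 7.86 CPM in treated samples. The genes most like Sod1 were Csnk2b (r of 0.953), Ndufs6 (0.950), a subunit of respiratory complex I, and Eif3k (0.939).

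Sod2 (ENSMUSG00000006818; chromosome 17, 13200705 to 13210985) was at 115.8 to 158.3 CPM in all 22 retinas, and its log2 fold change lay between -0.11 ± 0.120 with Romidepsin and 0.05 ± 0.068 with UNC0642. Its groups overlapped in every comparison except UNC0642, where the treated retinas, at 151.2 and 143.1 CPM, were above controls at 142.7 and 141.9 CPM. In rods it was at 106.5 and 148.6 CPM in controls and 127.1 and 107.8 CPM in treated samples. The genes most like Sod2 were Ogfod1 (r of 0.877), Sh3pxd2a (0.868) and Rptor (0.865), and those most like Nfe2l2 were Gm12182 (0.870), Clcc1 (0.864) and Fuca1 (0.850). Processed pseudogenes of Sod1 and Gpx4 may share reads with them, so their levels are uncertain to that degree.

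Counted by separation alone, 6 of the 10 genes had groups that did not overlap with DZNep, against 45.9% of all genes tested, and 3 with UNC1999, against 27.4%. The counts were 9 with UNC0642 against 52.1%, 5 with Romidepsin against 26.0%, and 5 in sorted rods against 33.2%. In sorted rods all 5 were lower, and 9 of the 10 log2 fold changes were negative with a median of -0.42, beside a median of -0.01 over all genes. By the quasi-likelihood test none of the 10 genes passed with a more than 2-fold change in any comparison, as 1.71% of all genes did with DZNep, 0.368% with UNC1999, 0.561% with Romidepsin and 0% in the other comparisons. With Romidepsin, Mt1, Mt2 and Gpx3 passed this rule by the likelihood ratio test (3.10% of all genes) and by DESeq2 (2.40%). By direction, treated samples lay below all controls for 4, 3, 3, 2 and 5 of the 10 genes in these comparisons, in the same order, against 21.5%, 13.6%, 25.2%, 12.5% and 17.3% of all genes. They lay above all controls for 2, 0, 6, 3 and 0, against 24.4%, 13.9%, 26.9%, 13.5% and 15.9%.

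The wider antioxidant and metal pathways gave calls mainly with DZNep, at shares near those of all genes in that comparison. Of 86 other genes of 8 pathway lists, 83 had a matching symbol and 81 were tested with DZNep; 12 rose and 7 fell, with a median log2 fold change of 0.03 beside -0.00 for all genes. In this comparison 12.9% of all genes were called higher and 9.72% lower, and the counts of each list are read against these shares. Among peroxide and superoxide enzymes, 0 of 15 rose and 3 fell, all of them peroxiredoxins. Prdx6, which also acts on oxidized phospholipids, fell from 237.8 ± 5.72 CPM (SD, n = 4) to 158.1 ± 14.4 CPM (n = 2), by 0.59 on the log2 scale (adjusted p = 0.000725). Mitochondrial Prdx3 and cytosolic Prdx1 fell by 0.28 and 0.20 on the log2 scale (adjusted p = 0.00725 and 0.0158). Among iron genes, 2 of 8 rose and 1 fell. The transferrin receptor gene Tfrc rose from 118.7 ± 2.30 CPM to 172 ± 10.5 CPM, a log2 fold change of 0.54 (adjusted p = 0.000483).

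Of 8 regulators of NRF2, 2 rose with DZNep and none fell. Cul3, which encodes the ubiquitin ligase scaffold that works with KEAP1, went from 234.0 ± 4.22 to 299.0 ± 25.2 CPM (log2 fold change 0.36, adjusted p = 0.00265). Of 16 NRF2 targets, 2 rose and 1 fell. Glucocorticoid-responsive genes, which were listed because glucocorticoids act on metallothionein genes, included 4 of 10 that rose, beside 12.9% of all genes, and 0 that fell. Among them Sgk1, a kinase gene, had a log2 fold change of 0.71 (112.1 ± 13.5 to 183.2 ± 21.8 CPM, adjusted p = 0.00253) and Ddit4, an inhibitor of mTOR signalling, 0.55 (107.4 ± 10.6 to 157.1 ± 8.07 CPM, adjusted p = 0.00247). Of 13 genes of the selenium pathway 2 rose and 1 fell, the latter being Sepn1 (log2 fold change -0.22, adjusted p = 0.0162). Of 5 genes of metal handling 0 rose and 1 fell, and of 6 relatives of Txnip 0 rose and 0 fell.

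With Romidepsin, where 0.573% of all genes were called higher and 0.174% lower, 1 of 81 pathway genes rose and 0 fell. This was Maff, a small MAF protein gene whose product pairs with NRF2, which went from 1.83 ± 0.343 CPM to 5.47 ± 1.15 CPM (n = 3 each, log2 fold change 1.57, adjusted p = 0.0362). No pathway gene passed with UNC1999, with UNC0642 or in sorted rods, where 0.602%, 0% and 0% of all genes did. At an unadjusted p under 0.05 they were 26 of 80 with UNC1999 (23.6% of all genes), 12 of 81 with UNC0642 (14.7%) and 4 of 73 in rods (4.91%). The likelihood ratio test and DESeq2 each called 12 with UNC1999 (10.4% and 9.25% of all genes) and 0 with UNC0642 (0.888% and 0.931%). In rods each of those tools called 1. The median log2 fold change of the pathway genes tested was -0.02 with UNC1999, 0.01 with UNC0642, 0.08 with Romidepsin and -0.08 in sorted rods.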

How the data were processed

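Poly(A) RNA-seq libraries of 22 retinas and 4 samples of sorted rods were used, all of the 26 in the deposited table. The authors used BBDuk for trimming, HISAT2 2.2.1 for alignment to NCBIM37 (mm9) and HTSeq 0.11.2 for counting over Ensembl genes. The deposited values are raw counts, whole numbers for 37991 Ensembl genes, with no row for unassigned reads. The labels give a stranded mRNA kit for all libraries, and the methods give the SMART-Seq mRNA HT LP kit for sorted rods.

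Symbols, positions and exon lengths were those of GENCODE M1, also on NCBIM37, which held 37205 of the genes. The 10 genes, the pathway and marker lists and the tests were chosen with earlier results of these data known. Each comparison was fitted separately in edgeR 4.0.16 (R 4.3.3) with filterByExpr, TMM and the quasi-likelihood F test without a replicate block, with Benjamini-Hochberg adjustment over all genes tested. Calls needed an adjusted p under 0.05, and a second rule added a change above 1 on the log2 scale. Differences between inhibitors and the mean of the 4 retina effects came from 1 fit of the 22 retinas. Similar genes were the 3 with the highest Pearson's r of log2 CPM (prior count 2) after subtraction of control means; 1 of them is not reported here. Pathway genes were named in each comparison if they were called with no overlap between groups, up to 4 in each direction. A count of 3 was taken as the floor, 0.0875 to 0.223 CPM in retina and 0.156 to 0.401 CPM in rods, and covers counting error only.

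The results were recomputed with DESeq2 1.42.0, edgeR's likelihood ratio test, no filter, at least 10 counts in every library, RLE normalization, a replicate block, the 9 controls whose library names start with G-981, all 22 retinas in 1 fit, and leaving out each library. Chosen after the data were seen were the mean effect and its alternatives, and the crossed block in rods. The fits were also run on simulated data with planted changes larger than the DZNep effects called here. Such data do not show how often smaller changes are found. Replicate numbers were not taken as pairs: the correlation of same-numbered deviations ran from -0.53 to 0.34. Replicates of every group differed by more than sampling noise.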

Additional observations from a re-analysis of the deposited data

Results flagged for a closer look

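Gpx3 in DZNep control replicate 1 was at 74.0 CPM and the other 3 controls were at 10.8 to 15.6 CPM, a gap above Dixon's critical value for 4 samples. Only the DZNep controls are a group of 4, so 10 groups of values were examined, 1 for each gene, and 1 stood out; chance marks about 1 in 20 such groups. The Gpx3 effect with DZNep was 2.22 on the log2 scale with this library and 3.32 without it.

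The effects of inhibitors differed in 5 of 60 tests, 2 for DZNep less Romidepsin and 3 for UNC1999 less Romidepsin. For DZNep less Romidepsin the log2 differences were -2.26 (Mt1) and -2.86 (Mt2). For UNC1999 less Romidepsin they were -1.67 (Txnip), -1.87 (Mt1) and -1.99 (Mt2). Causes were not tested.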

How the results depend on the processing

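The counts below are of the 10 genes, and then of the pathway genes, with an adjusted p under 0.05. With DZNep 4 genes were called, and 0 with all 22 retinas in 1 fit or with the added 2-fold rule. With the 9 controls whose library names start with G-981 they were 2 (Txnip and Sepp1, with Mt1, Mt2 and Gpx4 lost). Without the filter Gpx3 (adjusted p = 0.0376) and Sepp1 (0.0137) were added. A replicate block added Sepp1 (0.0389) and lost Mt1 (0.0502) and Gpx4 (0.0727). Of all genes, 1672 rose and 821 fell of 17000 with the 9 controls, and 963 and 370 of 17274 in 1 fit. They were 2119 and 1679 of 23711 without the filter and 919 and 496 of 16477 with the block. With UNC1999 0 were called, and 2 by the likelihood ratio test, DESeq2, without the filter and in the fit of 22 retinas. The likelihood ratio test called 10.4% of all genes and DESeq2 9.25%. Without the filter 533 of all genes rose and 491 fell of 22660, and in the fit of 22 retinas 717 and 728 of 17274. With UNC0642 0 were called, and 2 by the likelihood ratio test, 3 by DESeq2 and 6 without the filter. They were 4 with a replicate block and 1 with the 9 controls (Gpx4). Of all genes the likelihood ratio test called 0.888% and DESeq2 0.931%. Without the filter 443 of all genes rose and 609 fell of 23117, and with the block 244 and 345 of 16321. The share of all genes called with the 9 controls is not given here for UNC0642. That call of Gpx4 thus cannot be read as particular to this gene. With Romidepsin 0 were called, and 2 in the fit of 22 retinas. They were 3 by the likelihood ratio test, DESeq2, without the filter, with at least 10 counts, with a replicate block and with the 9 controls (there Mt1, Mt2 and Txnip). Of all genes 7.38% were called by the likelihood ratio test, 6.69% by DESeq2 and 17.3% in the fit of 22 retinas. Without the filter 410 of all genes rose and 260 fell of 23466, and with at least 10 counts 117 and 28 of 15014. With the block these were 80 and 17 of 16049, and with the 9 controls 1112 and 1355 of 16720. The count in sorted rods was 0 under every alternative run, and with the crossed block, for which the 2 groups of 2 gave a same-number correlation of -0.15, it was also 0. The counts of pathway genes that follow are read against the same counts and shares of all genes. Pathway genes called with DZNep were 19, against 7 with a replicate block, 7 in the fit of 22 retinas and 0 with the 2-fold rule. With UNC1999 they were 0, against 12 by the likelihood ratio test, 12 by DESeq2, 7 without the filter and 10 in the fit of 22 retinas. With UNC0642 they were 0, against 3 without the filter and 1 with the block. With Romidepsin they were 1, against 6 by the likelihood ratio test, 6 by DESeq2, 5 without the filter, 2 with the block and 13 in the fit of 22 retinas. In rods they were 0, against 1 by the likelihood ratio test, 1 by DESeq2 and 2 without the filter. There 46 of all genes rose and 25 fell of 14478 by the likelihood ratio test, and 27 and 16 by DESeq2. Without the filter these were 143 and 43 of 21110. For DZNep less UNC0642 the likelihood ratio test called 1 difference in place of 0, and 100 higher and 33 lower among 17274 genes. For DZNep less Romidepsin the replicate block left 0 of 2, and 2 higher and 1 lower among 17274 genes. The mean of the 4 effects gave 4 genes, and 3 with the replicate block, where Mt2 and Gpx4 were lost and Txnip was gained. With that block 1174 of all genes rose and 1160 fell of 17274.

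With 1 library left out, the genes called numbered 1 to 6 with DZNep, 0 to 2 with UNC1999, 0 to 2 with UNC0642, 0 to 3 with Romidepsin, 0 in rods and 2 to 4 for the mean effect. Pathway genes numbered 9 to 26, 0 to 15, 0 to 1, 0 to 4 and 0. Differences numbered 0 to 3 for DZNep less Romidepsin, 1 to 4 for UNC1999 less Romidepsin and 0 to 2 for UNC0642 less Romidepsin, and 0 for the other pairs. No called effect changed sign under any alternative. Leaving out a library of a pair leaves 1 sample in a group, which is then assumed to vary like the rest. The share of all genes called in each fit with 1 library left out is not given here. The counts from those fits thus cannot be read as particular to the genes listed. Against the 9 controls the log2 fold change of Sepp1 with Romidepsin was -0.10 in place of -0.35. The causes of these changes were not tested. Groups of 2 limit DZNep, UNC0642 and sorted rods, and rods have the lowest depth.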
